A study of Homo sapiens with 20 samples.

Results

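Far distal RUNX1 peaks were taken as the peaks of the RUNX1 ChIP-seq count table whose midpoint fell outside every protein-coding gene and which lay more than 50 kb from every protein-coding gene end, by the RefSeq annotation of GRCh38. Of 26642 peaks, 3586 (13.46%) met this rule, which uses position alone and no read count. All libraries were made from THP-1 cells, a line established from an acute monocytic leukemia, which carried either a doxycycline-inducible shRNA against PU.1 (knockdown) or a scramble construct (control), so both arms shared the inducible vector and its induction. There were 6 control and 6 knockdown immunoprecipitations in 2 batches: batch 1 had 3 control and 2 knockdown libraries, and batch 2 had 3 control and 4 knockdown libraries. All came from a single parental cell line, with separate immunoprecipitations and library preparations. The errors below therefore measure the spread between those libraries and not between donors. The knockdown and control constructs were carried by separately derived cells, so any other difference between these cells cannot be told apart from the knockdown. The 8 IgG libraries were not analysed here. PU.1 protein and RNA were not measured in these files, so the depth of the knockdown in each library was not checked.

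RUNX1 is a DNA-binding factor of blood stem cells and their progeny that recognises a short motif and binds with partners, among them PU.1, the ETS-family factor of myeloid fate. Binding far from any coding gene is often found at enhancers, which can act on a gene over long genomic distances and often lie in the large gene-poor intervals around developmental regulators. Long noncoding RNA and microRNA genes also lie in these intervals, and some of them start within such binding sites. The nearest gene named beside a peak below is a landmark and was not tested as its target.

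Some far distal peaks covered the start of a noncoding gene, and their sequence could be read from RefSeq promoter windows (GRCh38.p14; 250 bases before to 50 after the start, written along the gene's strand). Of the 3586 peaks, 93 overlapped the promoter window of a listed gene. Shown are the 3 gained and the 3 lost peaks of smallest adjusted p that held a whole lncRNA window, followed by the strongest such peak, which was also lost. Capitals mark the RUNX motif TGTGGT and the purine core GAGGAA found in ETS-family sites such as that of PU.1, on either strand.
LINC02026 (gained, chr3:194003610-194003909, minus strand): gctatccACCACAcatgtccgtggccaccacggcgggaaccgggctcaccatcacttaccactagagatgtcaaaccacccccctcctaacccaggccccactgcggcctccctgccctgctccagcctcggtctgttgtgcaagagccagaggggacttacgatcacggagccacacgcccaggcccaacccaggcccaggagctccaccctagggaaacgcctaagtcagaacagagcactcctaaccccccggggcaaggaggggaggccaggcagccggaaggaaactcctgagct
LOC102724734 (gained, chr20:19047699-19047998, plus strand): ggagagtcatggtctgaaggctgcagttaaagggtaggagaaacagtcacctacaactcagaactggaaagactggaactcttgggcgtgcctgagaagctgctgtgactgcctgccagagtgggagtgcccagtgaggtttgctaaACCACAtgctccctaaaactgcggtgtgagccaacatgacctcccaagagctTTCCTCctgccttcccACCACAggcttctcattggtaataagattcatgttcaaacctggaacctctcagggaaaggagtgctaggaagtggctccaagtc
LOC124904049 (gained, chr17:68695050-68695349, minus strand): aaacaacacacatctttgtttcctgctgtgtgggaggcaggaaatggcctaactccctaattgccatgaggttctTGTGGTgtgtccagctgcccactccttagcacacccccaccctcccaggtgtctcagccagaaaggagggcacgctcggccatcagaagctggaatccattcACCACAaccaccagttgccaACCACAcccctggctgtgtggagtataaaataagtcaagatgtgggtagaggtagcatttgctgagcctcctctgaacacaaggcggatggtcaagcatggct
LOC105377923 (lost, chr6:105892936-105893235, minus strand): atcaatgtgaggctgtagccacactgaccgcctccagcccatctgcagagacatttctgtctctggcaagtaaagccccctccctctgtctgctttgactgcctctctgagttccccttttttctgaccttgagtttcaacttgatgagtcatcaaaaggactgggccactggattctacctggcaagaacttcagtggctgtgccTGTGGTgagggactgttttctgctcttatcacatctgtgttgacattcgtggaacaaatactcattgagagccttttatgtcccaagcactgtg
LOC105373262 (lost, chr1:244254550-244254849, minus strand): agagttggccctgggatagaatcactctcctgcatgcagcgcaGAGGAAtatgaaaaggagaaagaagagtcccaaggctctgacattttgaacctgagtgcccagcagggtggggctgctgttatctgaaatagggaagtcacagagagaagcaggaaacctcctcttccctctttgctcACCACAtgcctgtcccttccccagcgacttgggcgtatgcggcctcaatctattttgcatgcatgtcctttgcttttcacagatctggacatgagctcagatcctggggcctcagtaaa
LINC02217 (lost, chr5:17436487-17436786, plus strand): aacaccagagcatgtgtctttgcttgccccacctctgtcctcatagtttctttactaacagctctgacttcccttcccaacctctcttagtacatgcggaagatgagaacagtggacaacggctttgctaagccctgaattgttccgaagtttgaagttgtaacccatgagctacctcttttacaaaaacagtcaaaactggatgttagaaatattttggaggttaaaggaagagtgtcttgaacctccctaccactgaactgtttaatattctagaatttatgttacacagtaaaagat
LOC105378153 (lost, chr6:170160395-170160694, minus strand): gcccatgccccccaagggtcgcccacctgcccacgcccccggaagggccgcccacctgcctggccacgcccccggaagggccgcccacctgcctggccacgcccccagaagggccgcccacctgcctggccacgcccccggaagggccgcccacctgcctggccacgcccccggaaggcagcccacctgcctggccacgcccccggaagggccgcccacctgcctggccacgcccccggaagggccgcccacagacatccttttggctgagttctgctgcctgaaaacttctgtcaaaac

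The 3 gained windows held 1, 2 and 3 matches to the RUNX motif, the lost windows of LOC105377923 and LOC105373262 held 1 each, and those of LINC02217 and LOC105378153 held 0. Over the 108 promoter windows at far distal peaks, 28 (25.9%) held TGTGGT, compared with 13.1% of all 35116 promoter windows of the same length and 16.2% of the 12917 lncRNA windows. The shares were 7 of 21 windows at gained peaks, 5 of 22 at lost peaks and 16 of 65 at peaks that were not called. GAGGAA was in 38.9% of the windows at far distal peaks, 27.9% of all windows and 27.8% of lncRNA windows. The C/EBP letters TTGCNNAA were in 7 of 21 windows at gained peaks, 1 of 22 at lost peaks and 9 of 65 at peaks not called. They were in 10.5% of all windows and 13.5% of lncRNA windows. The AP-1 letters TGANTCA were in 2 of 21, 6 of 22 and 11 of 65, against 7.71% of all windows and 10.4% of lncRNA windows. The longer PU.1 form AGAGGAAGT was in 2 of the 108 windows and in 0.982% of all. The IRF letters GAAANNGAA were in 7 of the 108, in 8.11% of all and in 9.85% of lncRNA windows. By call, they were in 4 of 21 windows at gained peaks, 0 of 22 at lost peaks and 3 of 65 at peaks not called. Each motif was searched on both strands, and AGAGGAAGT contains GAGGAA. These are counts of letters in windows of which several lay in the same peak, and the rest of each peak was not searched.

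The peak over the start of LINC02026, a lncRNA gene 65.7 kb from the nearest protein-coding gene, had 50.4 to 70.2 normalised reads in control (median 58.9) and 93.2 to 183 in PU.1 knockdown (median 118). Every knockdown library was above every control library, and the log2 fold change was 1.19 ± 0.13 (SE, adjusted p = 3.47e-17). At LOC102724734, between SCP2D1 and SLC24A3, control libraries held 5.76 to 13.0 normalised reads (median 11.9) and knockdown libraries 32.9 to 48.2 (median 39.4), a log2 fold change of 1.87 ± 0.26 (SE, adjusted p = 2.44e-11). The peak at LOC105377923, between PREP and PRDM1, fell from a control median of 43.1 (34.0 to 46.8) to a knockdown median of 12.3 (7.13 to 21.9), with a log2 fold change of -1.59 ± 0.23 (SE, adjusted p = 1.17e-10). PRDM1 encodes Blimp-1, a transcriptional repressor that drives terminal B-cell differentiation. The ranges of the groups did not overlap at any of these 3 peaks, which their choice by smallest adjusted p made likely.

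The weakest of the printed peaks in control, at LOC124904049 between FAM20A and ABCA8, held 2.34 to 15.6 normalised reads there (median 3.31) and 24.2 to 42.9 in knockdown (median 28.5; log2 fold change 2.56 ± 0.37, SE, adjusted p = 7.63e-11). The peak at LOC105373262, between ZBTB18 and SPMIP3, fell from 29.3 to 42.8 (median 35.0) to 8.39 to 15.4 (median 13.3; log2 fold change -1.50 ± 0.24, SE, adjusted p = 8.31e-09). That at LINC02217 by BASP1 fell from 47.2 to 76.9 (median 58.8) to 21.4 to 36.5 (median 32.9; log2 fold change -0.99 ± 0.18, SE, adjusted p = 3.99e-07). At LOC105378153, beside the Notch ligand gene DLL1, the strong peak fell from 184 to 224 (median 209) to 109 to 157 (median 149), a log2 fold change of -0.51 ± 0.10 (SE, adjusted p = 2.02e-06). The groups were apart at each of these 4 peaks as well. All but the LOC105378153 peak were chosen by smallest adjusted p, which made this likely. Over all peaks, knockdown was above control without overlap in both batches at 14.4% and below it at 13.9%.

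MicroRNA genes also lay beside far distal peaks: 43 peaks were within 10 kb of 29 microRNA genes, of which 12 were gained (27.9%, against 21.3% of all peaks) and 6 lost (14.0%, against 20.7% of all peaks). The mature sequences shown belong to the microRNAs beside the strongest peaks that changed and to MIR148A. Capitals mark the seed, bases 2 to 8, which pairs with target transcripts. The miR-17 cluster lies in MIR17HG between SLITRK5 and GPC5, and of the mature forms shown, miR-17-5p and miR-20a-5p share the seed AAAGUGC and miR-19a-3p and miR-19b-3p the seed GUGCAAA.
hsa-miR-17-5p (chr13:91350618-91350640): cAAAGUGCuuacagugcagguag
hsa-miR-20a-5p (chr13:91351072-91351094): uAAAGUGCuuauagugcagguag
hsa-miR-18a-5p (chr13:91350756-91350778): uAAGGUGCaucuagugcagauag
hsa-miR-19a-3p (chr13:91350939-91350961): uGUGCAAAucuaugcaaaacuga
hsa-miR-19b-3p (chr13:91351245-91351267): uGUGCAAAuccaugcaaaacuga
hsa-miR-92a-3p (chr13:91351361-91351382): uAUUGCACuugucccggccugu
hsa-miR-9-5p (chr5:88666902-88666924): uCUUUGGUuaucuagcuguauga
hsa-miR-148a-3p (chr7:25949922-25949943): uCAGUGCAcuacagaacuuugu

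The peak before the miR-17 cluster (chr13:91341394-91346356, 4249 bp from MIR17 and 1331 bp from MIR17HG) was, at 4963 bp, the widest of all far distal peaks. It held 170 to 345 normalised reads in control (median 229) and 122 to 205 in knockdown (median 147), with a log2 fold change of -0.73 ± 0.11 (SE, adjusted p = 1.00e-09). Within each batch all knockdown libraries were below all control libraries, although the ranges overlapped across batches. Members of this cluster promote proliferation in blood cells. The peak inside MIR9-2HG, 4975 bp from MIR9-2, rose from a control median of 133 (109 to 178) to a knockdown median of 187 (154 to 223), a log2 fold change of 0.49 ± 0.11 (SE, adjusted p = 4.13e-05). Of the 2 peaks within 10 kb of MIR148A, the one 3795 bp away was gained, with a log2 fold change of 1.11 ± 0.26 (SE, adjusted p = 1.12e-04). The other, 1382 bp away, had an adjusted p of 0.59. All 3 peaks near MIR378G were gained, with log2 fold changes of 0.54, 1.12 and 0.89. The peak over the start of MIRLET7A1HG, host of let-7 microRNAs, had a median of 92.5 normalised reads in control and 82.7 in knockdown (adjusted p = 0.35).

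In the libraries as a whole, the table held 630247 to 1199004 in-peak reads per control library and 938745 to 1719840 per knockdown library. The ranges overlapped, but the knockdown median was higher (1425140 against 952572). In batch 1 every knockdown library held more in-peak reads than every control library. Total sequencing depth was not in the table. A far distal peak held a median of 16 to 29 reads in a control library and 23 to 41 in a knockdown library. Normalised reads below are these counts divided by the DESeq2 size factor of each library. Far distal peaks took 10.2 to 11.6% of in-peak reads in control (median 11.5%) and 11.3 to 12.1% in knockdown (median 11.7%). The difference of 0.307 percentage points was not larger than the spread between libraries (exact permutation test within batch, two-sided, p = 0.3, 350 arrangements). In batch 2 all 4 knockdown libraries (11.6 to 12.1%) were above all 3 control libraries (11.4 to 11.6%), a difference of 0.386 points, and in batch 1 the difference was 0.228. The low value of 10.2% belonged to control library 1. Without that library, a choice made after seeing the data, the batch 1 difference was -0.205 and that over both batches 0.0905 (exact permutation p = 0.471, 210 arrangements), and 1743 far distal peaks were called in place of 1822.

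PU.1 knockdown changed RUNX1 binding at about as many far distal peaks in one direction as in the other. The size factors set the typical peak of the table to no change, so a rise or fall shared by all peaks would not show. At an adjusted p under 0.05 and a fold change over 1.1, 939 of the 3586 were gained (26.2%, against 21.3% of all peaks) and 883 were lost (24.6%, against 20.7% of all peaks), which together made 1822 calls (50.8%, against 42% of all peaks). The median log2 fold change was 0.95 among gained and -1.03 among lost peaks, and 0.04 over all far distal peaks beside -0.02 over all peaks. More than 2-fold changes were found at 433 gained (12.1%, against 8.86% of all peaks) and 460 lost peaks (12.8%, against 8.2% of all peaks). All 3586 peaks were tested, since none was removed for low counts. A peak entered the table by being called in at least one of the conditions, so the weakest peaks are there through the condition in which they were higher.

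Distance beyond 50 kb went with the share of lost peaks and hardly with the share of gained peaks. From 50 to 100 kb, 357 of 1337 peaks were gained (26.7%) and 282 lost (21.1%). From 100 to 200 kb, 266 of 997 were gained (26.7%) and 237 lost (23.8%). From 200 to 500 kb, 218 of 847 were gained (25.7%) and 244 lost (28.8%), and beyond 500 kb, 98 of 405 were gained (24.2%) and 120 lost (29.6%). Lost peaks thus outnumbered gained peaks beyond 200 kb and were fewer below it. Where this turned depended on the threshold: among changes over 2-fold, lost peaks already outnumbered gained peaks at 100 to 200 kb (117 against 111). Under the other settings, calls by distance were counted without regard to direction. Peak by peak the relation was weak: Spearman's rho between distance and log2 fold change was -0.045 over the 3586 peaks, which share libraries and are not independent, and between distance and mean normalised reads it was -0.082. These shares were not tested against each other.

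**Figure D1:**
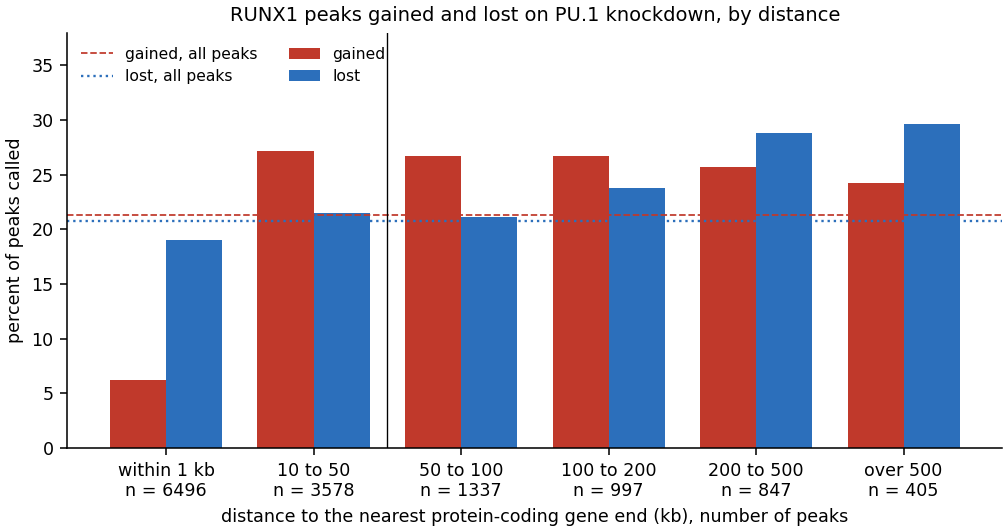
Percent of RUNX1 peaks gained (red) and lost (blue) on PU.1 knockdown, by distance in kb to the nearest protein-coding gene end, with the share over all peaks as dashed (gained) and dotted (lost) lines. The 4 pairs of bars right of the vertical line are the far distal peaks, in which the lost share goes from 21.1% to 29.6% with distance; the 2 pairs left of it, shown for comparison, include peaks inside genes in the first pair and intergenic peaks only in the second.

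The shares just inside the limit resembled those just outside it. Among 3578 intergenic peaks at 10 to 50 kb, 27.1% were gained and 21.5% lost. Peaks within 1 kb of a gene end differed more from the far distal ones in these counts, with 6.19% of 6496 gained and 19.0% lost. Of the 3 peaks just past the limit, at 50.02 to 50.06 kb, the one between GCM1 and ELOVL5 was lost (log2 fold change -2.40) and those by SYT16 (0.32) and RUBCNL (-0.32) were not called. Of the 3 just short of it, at 49.98 to 49.99 kb, the one by RFX3 was lost (-0.79), the one by ST3GAL5 gained (0.68) and the one by TBC1D2B not called (-0.07).

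**Figure D2:**
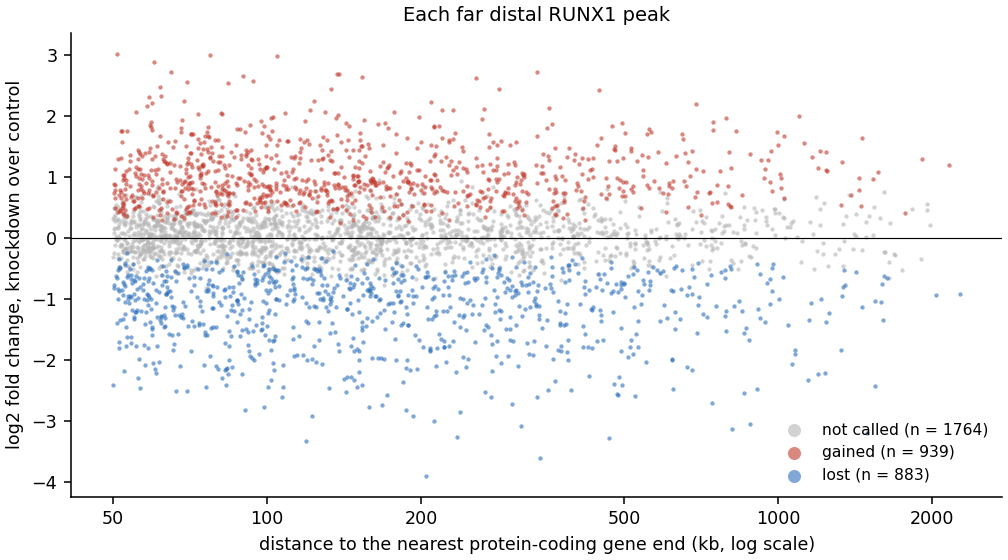
Log2 fold change (knockdown over control) of each of the 3586 far distal peaks against its distance in kb to the nearest protein-coding gene end (log scale), coloured by call. Gained (939) and lost (883) peaks are found at every distance from 50 kb to 2264 kb, among 1764 peaks that were not called.

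Far distal peaks were weaker and narrower than the others. Their median mean was 26.1 normalised reads, beside 32.0 over all other peaks, their median width was 743.5 bp beside 917 bp, and the next peak lay a median of 34.4 kb away beside 13.8 kb. At like strength they were still called more often than all other peaks. In 4 classes of strength, split at 20.3, 31.2 and 50.9 mean normalised reads, 55.2%, 46.5%, 52.7% and 46.2% of far distal peaks were called, from weakest to strongest, and 48.4%, 39.8%, 37.8% and 37.0% of the other peaks. The other peaks included those within 1 kb of a gene end, of which 25.2% were called. Intergenic peaks at 10 to 50 kb (median mean 28.5 normalised reads) were called at 48.7%, against 50.8% of far distal peaks. They were not split by strength, so a difference from them at like strength is not shown. In the weakest class 29.7% of far distal peaks were gained and 25.5% lost, and in the strongest 25.8% and 20.4%. A difference between these shares was not tested.

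The changes ran the same way in both batches. In batch 1 alone, 241 far distal peaks were gained (6.72%, against 5.38% of all peaks) and 334 lost (9.31%, against 6.61%). The batch 1 count of 575 calls rested on few libraries: it was 45 without knockdown library 2, 56 without knockdown library 1, 220, 224 and 383 without control libraries 2, 3 and 1, and 1284 by edgeR. In batch 2 alone, 580 were gained (16.2%, against 12.8%) and 599 lost (16.7%, against 13.1%), which made 1179 calls, with 759 without control library 6 and 782 without control library 5. Of the 575 peaks called in the fit of batch 1, 573 had the same sign in batch 2 (3187 of 3194 over all peaks). Of the 511 far distal peaks called in both batches, 511 had the same direction (2776 of 2776 over all peaks). The sign was the same in each batch at 1821 of the 1822 peaks called over both batches (11172 of 11185 over all peaks). That last count is close to fixed in advance, since the calls came from a fit to both batches. All knockdown libraries exceeded all control libraries of their own batch at 680 far distal peaks (19.0%, against 14.4% of all peaks) and were below them at 659 (18.4%, against 13.9%). The test for a different knockdown effect between batches gave 0 far distal peaks at an adjusted p under 0.05 in DESeq2, and 103 (2.87%, against 2.51% of all peaks) at an unadjusted p under 0.05.

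**Figure D3:**
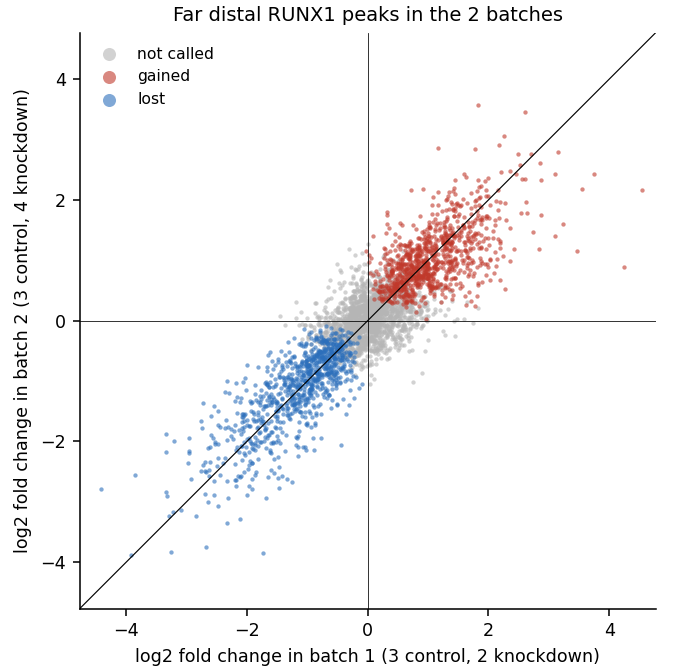
Log2 fold change of each far distal peak in batch 2 (vertical axis; 3 control and 4 knockdown libraries) against batch 1 (horizontal axis; 3 control and 2 knockdown), coloured by the call over both batches, with the line of equal change. Pearson's r across the 3586 peaks is 0.88, a description only, since both axes come from the same peaks.

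The largest gains and losses are given among called peaks with a mean of at least 30 normalised reads and no overlap of the groups in either batch (287 gained and 251 lost). These counts only describe the pool of the choice, and the like counts over all peaks are not given here. Among these, the largest gain lay between TBX18 and NT5E (chr6:85111513-85112207, 337.9 kb from NT5E, which encodes the ecto-enzyme CD73). This peak held 2.60 to 14.0 normalised reads in control libraries (median 11.7) and 59.4 to 82.0 in knockdown libraries (median 68.9). The log2 fold change was 2.72 ± 0.25 (SE, adjusted p = 1.10e-25), and 2.71 and 2.77 in the batches.

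The next largest gains flanked SATB1, a chromatin organiser of T cells and stem cells, on both sides, although each lay nearer to its other flanking gene. The nearest protein-coding gene was KCNH8 at 256.0 kb for the first given here and TBC1D5 at 284.2 kb for the second. One lay between SATB1 and the potassium channel gene KCNH8 (chr3:18891418-18892530), where control libraries held 8.21 to 19.6 normalised reads (median 9.86) and knockdown libraries 61.9 to 83.9 (median 69.8). Its log2 fold change was 2.61 ± 0.24 (SE, adjusted p = 9.89e-26). The other lay within the lncRNA gene BALR6 between TBC1D5 and SATB1 (chr3:18026851-18027739), with 10.4 to 20.8 in control (median 15.0) and 66.5 to 103 in knockdown (median 88.4), and a log2 fold change of 2.44 ± 0.21 (SE, adjusted p = 3.74e-28). Neither peak overlapped between groups, which the choice of these peaks already required within each batch. Of 17 far distal peaks with SATB1 as a neighbour, 7 were gained and 2 lost. Over all far distal peaks the shares were 26.2% gained and 24.6% lost, and over all peaks 21.3% and 20.7%. A difference from these shares was not tested. All peaks within 5 Mb to each side of the KCNH8 and BALR6 sites had a median log2 fold change of 0.15 and 0.18.

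A pair of stronger peaks on chromosome 5 were also among the largest gains. The peak between ANKRD55 and MAP3K1, a kinase gene of stress signalling (chr5:56594642-56596220, within the noncoding gene C5orf67), rose from 37.7 to 54.2 normalised reads in control (median 43.2) to 154 to 257 in knockdown (median 209.5), with a log2 fold change of 2.10 ± 0.14 (SE, adjusted p = 8.73e-49). The peak between TMEM161B and MEF2C, whose product is a transcription factor of myeloid and lymphoid progenitors (chr5:88517795-88519274), rose from 33.4 to 42.2 (median 40.1) to 131 to 194 (median 159.7), with a log2 fold change of 1.98 ± 0.14 (SE, adjusted p = 3.84e-41). It lay 197.8 kb from the nearest protein-coding gene and 19.0 kb from MIR9-2HG, in the same interval as the gained MIR9-2 peak. The remaining gains of this rank lay between FBXL17 and the tyrosine kinase gene FER (2.06), between NXNL2 and the sphingosine phosphate receptor gene S1PR3 (1.88), and beside ZNF365 (1.85), with control medians of 11.2 to 16.3 and knockdown medians of 51.2 to 61.3 normalised reads.

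Among the same peaks of at least 30 normalised reads, the largest loss lay in LINC00924 between MCTP2 and the nuclear receptor gene NR2F2 (chr15:95446826-95447435, 878.6 kb from the nearest protein-coding gene). It held 40.3 to 74.8 normalised reads in control (median 55.0) and 4.57 to 11.9 in knockdown (median 5.01), with a log2 fold change of -3.04 ± 0.27 (SE, adjusted p = 1.74e-27). All peaks within 5 Mb of it had a median log2 fold change of -0.24. The peak between CHSY3 and HINT1 (chr5:130764757-130765670) fell from 69.2 to 91.6 (median 76.3) to 11.2 to 19.8 (median 13.5), with a log2 fold change of -2.48 ± 0.20 (SE, adjusted p = 3.99e-33).

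The losses of next rank include peaks beside GATA3 and TRIB2. At 57.7 kb from GATA3, the T-cell transcription factor gene (chr10:8132904-8133687), control libraries held 50.3 to 84.3 normalised reads (median 59.3) and knockdown libraries 11.0 to 19.8 (median 15.5), a log2 fold change of -2.07 ± 0.21 (SE, adjusted p = 1.01e-20). At 128.2 kb from TRIB2, whose product is a pseudokinase that promotes degradation of C/EBPα (chr2:12587749-12588717), control held 38.2 to 75.4 (median 61.0) and knockdown 11.2 to 16.5 (median 13.8), a log2 fold change of -2.06 ± 0.22 (SE, adjusted p = 2.08e-19). The groups did not overlap at either peak, which the choice of these peaks already required within each batch. The other losses of this rank lay between FHIT and PTPRG (-2.15), FBXO11 and FOXN2 (-2.11), NCAM2 and MRPL39 (-2.04), and CCDC74A and LOC124908048 (-2.04), with control medians of 51.5 to 93.0 and knockdown medians of 11.7 to 22.8 normalised reads.

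**Figure D4:**
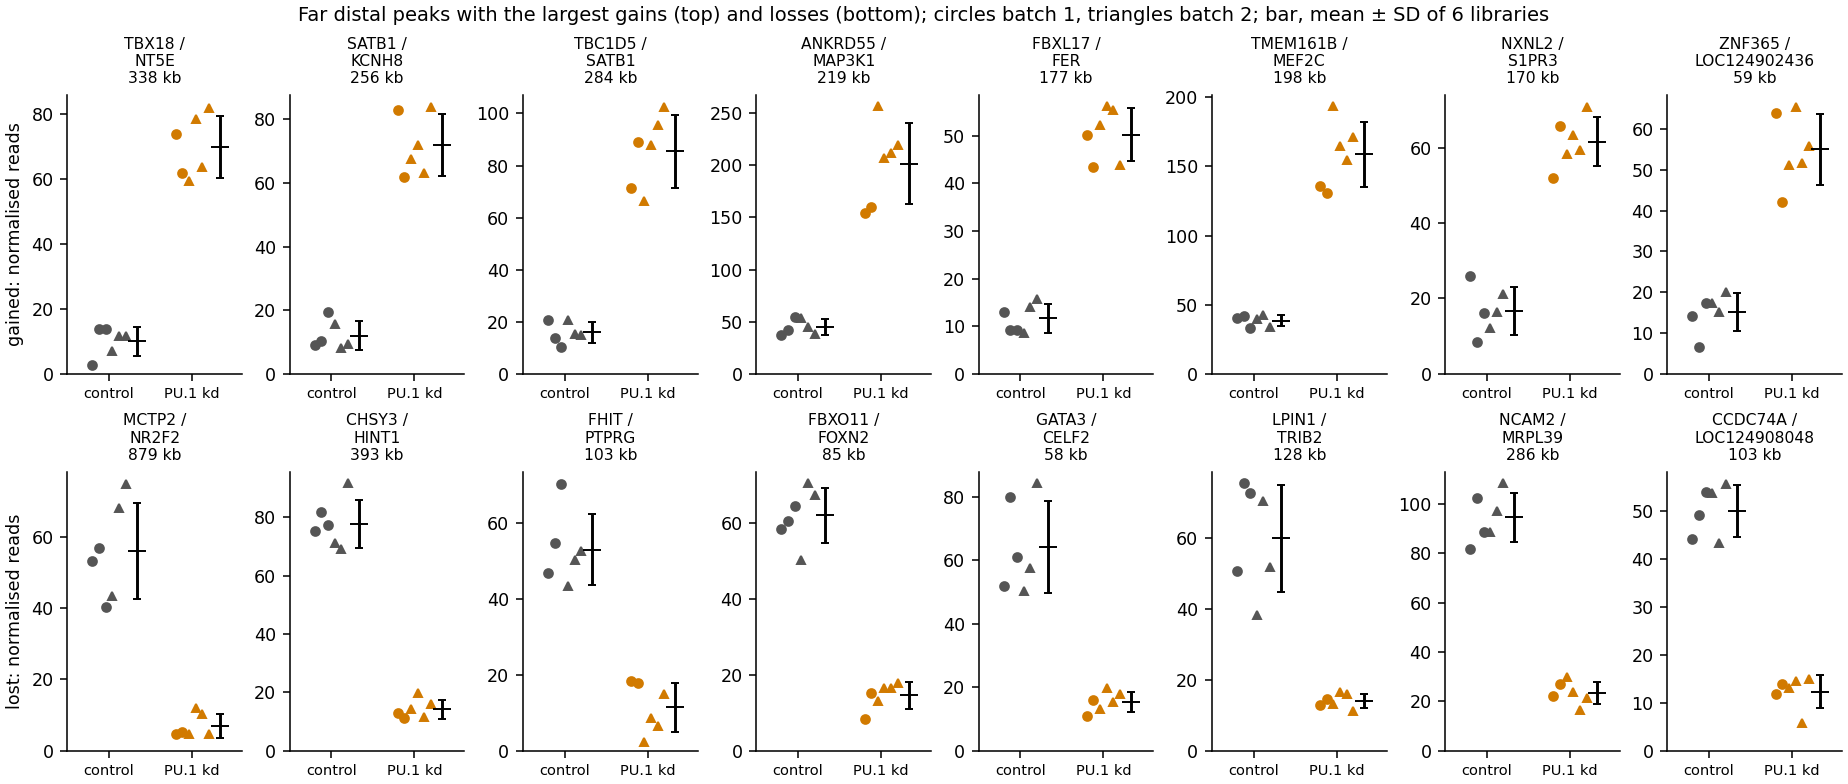
Normalised reads (vertical axes, from 0) in each of the 6 control (grey) and 6 knockdown (orange) libraries at the 8 largest gains (top row) and the 8 largest losses (bottom row) among called far distal peaks with a mean of at least 30 normalised reads and groups apart in each batch, titled by the flanking protein-coding genes and the distance to the nearest. Circles are batch 1, triangles batch 2, and bars are mean ± SD of 6 libraries. Each panel has its own scale. The knockdown range does not overlap the control range in any panel, which the choice of these peaks already required within each batch.

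Of the 5 strongest far distal peaks, 2 were called. The strongest of all, at the start of chromosome 7 (chr7:102476-104985, 68.2 kb from the nearest protein-coding gene), held 423 to 637 normalised reads in control (median 521) and 466 to 701 in knockdown (median 541, adjusted p = 0.15). The next, over the start of the lncRNA gene LNCATV between IRF2BP2 and TOMM20 (chr1:234961742-234964096), held 333 to 390 (median 372) and 333 to 416 (median 387), with a log2 fold change of 0.02 ± 0.07 (SE, adjusted p = 0.842). The peak in LINC01512 between VEGFA and MRPL14 (chr6:43923504-43927362) was gained, from 226 to 272 (median 250.1) to 328 to 381 (median 349.5), a log2 fold change of 0.49 ± 0.08 (SE, adjusted p = 4.30e-09). The peak between UBE2V2 and CLXN (chr8:48520825-48522102) had medians of 261 and 278 (adjusted p = 0.503). The peak between LINC02798 and H3-7 (chr1:121516219-121517422) had medians of 291 and 239 and was lost by 0.25 on the log2 scale (SE 0.08, adjusted p = 0.00806), with overlap between the groups; this call was lost without knockdown library 2 (adjusted p = 0.0591). The first of these peaks lies near a chromosome end and the last lies beside the centromere, where near-identical copies can share reads; how reads were placed there was not tested.

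Most of the far distal peaks lay in gene deserts, taken as gaps of at least 500 kb between protein-coding genes. There were 1971 peaks in 521 such deserts, of which 490 were gained (24.9%, against 21.3% of all peaks) and 547 lost (27.8%, against 20.7% of all peaks). In shorter gaps, 444 of 1594 were gained (27.9%) and 332 lost (20.8%), and 21 peaks lay beyond the last gene of a chromosome arm. Both directions occurred in 147 deserts, gains alone in 123, losses alone in 145 and no call in 106. Of the 145 deserts with at least 5 far distal peaks, 99 held both gained and lost peaks. Groups of as many peaks elsewhere were not counted, so this is not shown to be particular to deserts. The counts of single deserts below are to be read beside these shares and were not tested against them.

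The desert with the most far distal peaks was that between MYC, the growth-promoting oncogene, and GSDMC (chr8:127742952-129705434), which also holds PVT1 and CCDC26. Of its 28 peaks, 8 were gained and 10 lost. Opposite changes, singled out after their values were seen, occurred close together within LOC124902020, 431 to 434 kb from MYC. The peak at chr8:128173979-128174641 fell from 29.3 to 41.6 normalised reads (median 37.3) to 12.5 to 23.8 (median 17.1), with a log2 fold change of -1.17 ± 0.22 (SE, adjusted p = 1.23e-06). Its neighbour at chr8:128175388-128176048 rose from 13.0 to 21.9 (median 16.2) to 26.5 to 45.3 (median 39.0), with a log2 fold change of 1.13 ± 0.23 (SE, adjusted p = 5.64e-06). Further along, the peak 508.1 kb from MYC was lost (-1.95 ± 0.25, SE) and that at 647.9 kb gained (1.70 ± 0.24, SE), with no overlap of the groups at either. In PVT1, a lncRNA gene neighbouring MYC, 2 of 7 peaks were gained and 1 lost, the latter, a peak that overlapped MIR1204, by 0.34 on the log2 scale (SE 0.14, adjusted p = 0.0446). This last call was marginal: it was lost on leaving out any of 10 of the 12 libraries, and under 4 of 8 other settings (total-count scaling, no batch term, replicate block and 10 Mb centring). In CCDC26, a lncRNA gene of myeloid leukemia, 1 of 9 was gained and 5 lost, the strongest of the lost peaks falling from 80.9 to 107 normalised reads (median 95.1) to 42.1 to 53.4 (median 45.4), a log2 fold change of -1.0 ± 0.14 (SE, adjusted p = 3.14e-11). All peaks in the 10 Mb around had a median log2 fold change of -0.09, and 33.2% of all chromosome 8 peaks were lost and 17.5% gained.

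The desert between ZEB2, a zinc-finger repressor active in blood cell differentiation, and ACVR2A held 24 far distal peaks, of which 8 were gained and 6 lost. Within LOC100505498 a weak peak fell from 11.5 to 19.0 normalised reads (median 15.1) to 0.932 to 4.62 (median 1.95), a log2 fold change of -2.70 ± 0.46 (SE, adjusted p = 5.50e-08). The largest gain lay near the other end of the desert, 361.3 kb from ACVR2A, and went from 5.86 to 14.9 (median 8.82) to 29.8 to 38.4 (median 35.6), a log2 fold change of 1.87 ± 0.27 (SE, adjusted p = 1.94e-10). In TEX41, the lncRNA gene beside ZEB2, 3 of 5 peaks were lost and 0 gained.

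The desert between MAT2B and TENM2 on chromosome 5 (3460 kb long) leaned to loss, with 1 of 22 peaks gained and 9 lost, 7 of them over 2-fold. Its lost peaks were spread from 141.4 kb to 2318 kb past MAT2B, and the 2 with the largest losses went from control medians of 22.3 and 22.9 to knockdown medians of 4.11 and 3.43 normalised reads. The median over all peaks of these 10 Mb was -0.04. Between DUSP4, a phosphatase gene of MAP kinase signalling, and SARAF, 6 of 19 peaks were gained and 4 lost. The strongest there, in LINC02099, had medians of 160.4 and 166 (adjusted p = 0.203), while another in the same gene fell from a median of 24.0 to 2.96 (log2 fold change -3.08 ± 0.40, SE, adjusted p = 5.53e-13).

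The second of the 5 deserts by number of peaks, with 26, lay before SRY on chromosome Y, and its standing depends on the annotation. This stretch is shared with chromosome X, and the gene table gave the shared genes on X only; 19 of the 26 peaks lay in or within 50 kb of a protein-coding gene when placed at the same coordinates of X, and 16 overlapped a peak there. Reads of these peaks cannot be told apart between X and Y. They counted 6 gained and 4 lost, and without them, a choice made after seeing the data, 933 of 3560 far distal peaks were gained and 879 lost.

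**Figure D5:**
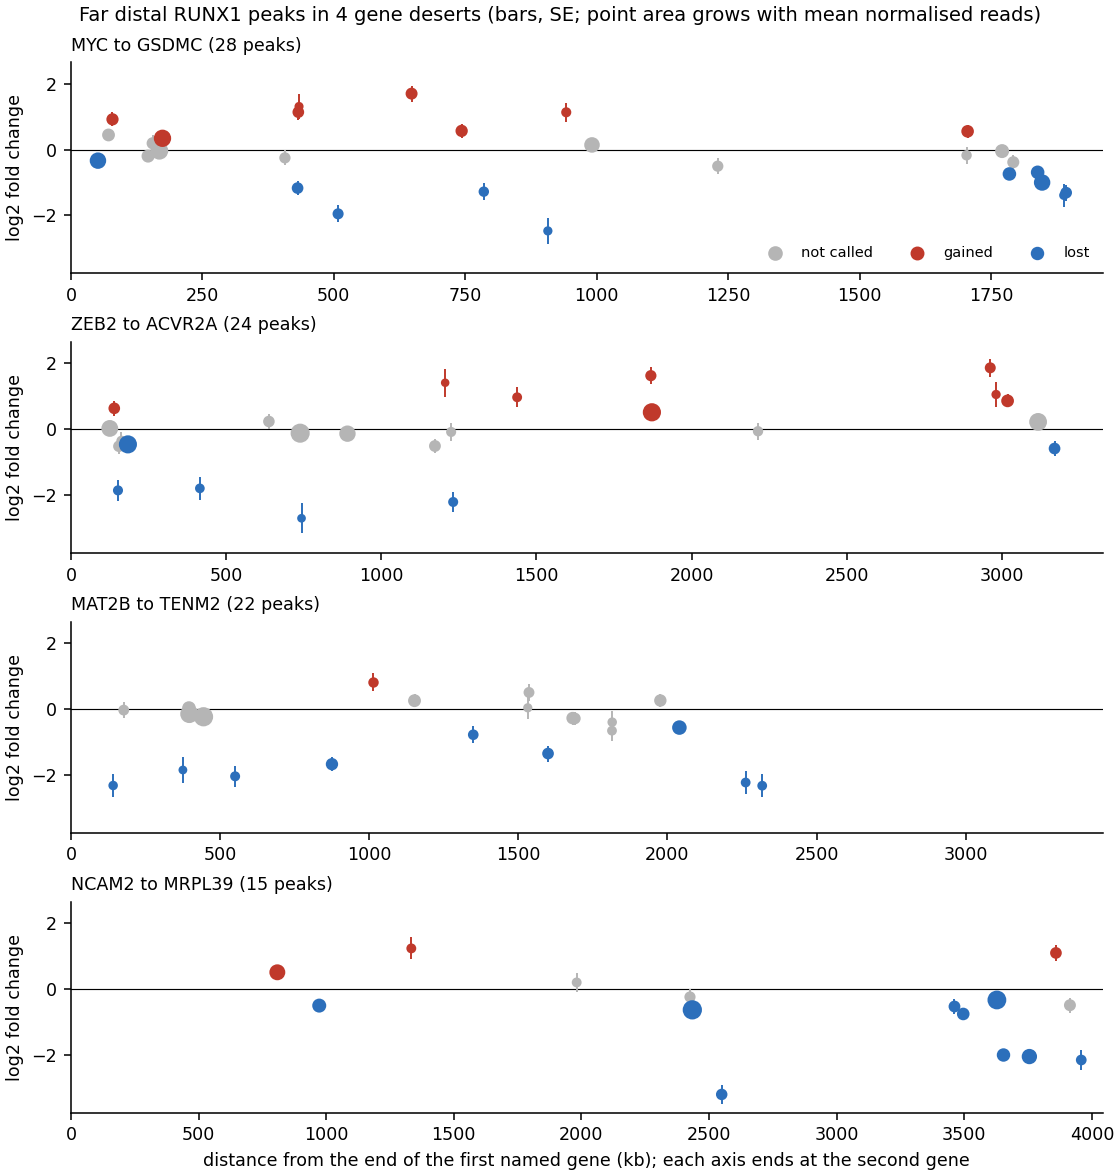
Log2 fold change (knockdown over control, bars are SE) of each far distal peak in 4 gene deserts, against the distance in kb from the end of the first named gene; point area grows with mean normalised reads. Gained (red) and lost (blue) peaks both occur between MYC and GSDMC and between ZEB2 and ACVR2A, while lost peaks prevail between MAT2B and TENM2 (9 of 22) and between NCAM2 and MRPL39 (9 of 15).

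Some other deserts leaned one way and are named here after their values were seen. Between NCAM2 and MRPL39 on chromosome 21, 3 of 15 peaks were gained and 9 lost, among them the peak at chr21:24092905-24093542, which fell from 39.0 to 56.3 normalised reads (median 45.6) to 1.86 to 8.59 (median 5.11), a log2 fold change of -3.19 ± 0.30 (SE, adjusted p = 1.74e-24). Between CITED2 and LOC124901415, 1 of 14 was gained and 6 lost, and between DAB2 and PTGER4, a prostaglandin receptor gene, 1 of 14 was gained and 5 lost. Gains prevailed between TLE3 and UACA (7 of 18 gained, 2 lost), between TBL1XR1 and KCNMB2 (5 of 13 gained, 1 lost) and between TAFA5 and BRD1 (6 of 10 gained, 0 lost). The median log2 fold change of all peaks in the region ran the same way in 5 of these 6 deserts, at -0.14 for NCAM2 to MRPL39, -0.12 for CITED2 to LOC124901415, -0.28 for DAB2 to PTGER4, 0.06 for TBL1XR1 to KCNMB2 and 0.24 for TAFA5 to BRD1, and the other way for TLE3 to UACA (-0.06). Its part in these counts was not tested. Past RUNX1 itself, toward SETD4, 2 of 11 far distal peaks were gained and 5 lost. The one 53.2 kb from RUNX1 fell from 27.0 to 54.8 (median 33.8) to 9.50 to 15.8 (median 10.7), a log2 fold change of -1.62 ± 0.26 (SE, adjusted p = 4.87e-09).

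The peak farthest from any protein-coding gene lay 2264 kb away, between PCDH7 and ARAP2 (chr4:33411060-33411712). It fell from 34.7 to 51.2 normalised reads in control (median 39.2) to 16.6 to 25.8 in knockdown (median 23.5), a log2 fold change of -0.92 ± 0.20 (SE, adjusted p = 3.45e-05). Of the peaks next to it, looked at because of this one, that at 2155 kb rose from a median of 23.4 to 54.4 (log2 fold change 1.19 ± 0.21, SE, adjusted p = 3.80e-07), and that at 2038 kb fell from 38.1 to 20.8 (-0.94 ± 0.21, SE, adjusted p = 6.04e-05). The groups did not overlap at any of the 3, so a gained peak lay between lost ones.

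Neighbouring far distal peaks more often moved together than apart. Of 812 pairs of adjacent far distal peaks within 20 kb, both were called in 197, with the same direction in 145 (73.6%). Among other adjacent peaks both were called in 1536 pairs, with the same direction in 984 (64.1%). The difference between these shares was not tested.

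Noncoding genes covered a part of the far distal peaks. In all, 1095 lay within 769 noncoding RNA genes, 766 of them lncRNA genes, with 289 gained (26.4%) and 278 lost (25.4%). Outside noncoding RNA genes 650 of 2491 were gained (26.1%) and 605 lost (24.3%). As many as 1055 peaks lay outside every noncoding RNA gene and over 50 kb from the ends of all of them, with 275 gained (26.1%) and 279 lost (26.4%). At the 93 peaks on listed promoter windows, 15 were gained (16.1%) and 19 lost (20.4%), and in pseudogenes 22 of 120 were gained (18.3%) and 17 lost (14.2%).

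The noncoding genes with the most far distal peaks were DLEU1 and CCDC26, with 9 each, followed by 5 genes with 7 each. Over all far distal peaks 26.2% were gained and 24.6% lost, and over all peaks 21.3% and 20.7%. The counts of single genes were not tested against these shares. DLEU1, at a chromosome 13 region deleted in lymphoid leukemia, had 2 gained and 2 lost. LOC643339 on chromosome 12 had 4 gained and 0 lost (median log2 fold change 0.90, region -0.03), and MIR3667HG on chromosome 22 had 4 gained and 0 lost (median 0.51, region 0.24). In MIR3667HG the peak with the smallest adjusted p rose from 19.9 to 43.4 normalised reads (median 32.7) to 61.5 to 81.3 (median 65.4), a log2 fold change of 1.13 ± 0.18 (SE, adjusted p = 6.04e-09). LINC00299, beside ID2, had 1 gained and 4 lost. BALR6 had 2 gained and 2 lost, and PVT1 had 2 gained and 1 lost.

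Regulators of the myeloid lineage were neighbours of 94 far distal peaks (13 of 21 listed genes had at least 1), of which 30 were gained (31.9%) and 26 lost (27.7%), with a median log2 fold change of 0.04. For this list and those below, the shares over all far distal peaks were 26.2% gained and 24.6% lost, and over all peaks 21.3% and 20.7%. At CEBPB, a factor of monocyte and granulocyte maturation, 6 of 11 peaks were gained and 2 lost. The leading one, 58.6 kb from PTPN1, rose from 82.1 to 108 normalised reads (median 93.1) to 165 to 205 (median 188), a log2 fold change of 1.04 ± 0.11 (SE, adjusted p = 6.70e-20). At KLF4, a monocyte differentiation factor, 5 of 16 were gained and 7 lost, the leading one falling from 48.4 to 65.7 (median 52.9) to 17.8 to 22.3 (median 19.5), a log2 fold change of -1.46 ± 0.19 (SE, adjusted p = 4.98e-13). At ID2, an inhibitor of helix-loop-helix factors, 5 of 18 were gained and 8 lost, and the peak 346.5 kb away rose from 37.7 to 45.1 (median 43.0) to 72.4 to 100.4 (median 88.9; adjusted p = 2.82e-10). At ZEB2 the leading loss, 1231.5 kb away, went from 20.8 to 33.4 (median 26.0) to 2.80 to 9.22 (median 5.24; adjusted p = 6.95e-11). The groups did not overlap at these 4 peaks, which their choice by smallest adjusted p made likely.

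Stem cell, lymphoid and leukemia regulators were neighbours of 105 far distal peaks (22 of 29 genes), with 26 gained (24.8%) and 32 lost (30.5%) and a median of -0.05. Beside SATB1, GATA3 and MYC, described above, BCL11B, a T-cell factor, had 2 of 7 gained and 1 lost. That loss, 519.5 kb away, went from 31.2 to 45.7 normalised reads (median 36.9) to 7.31 to 13.9 (median 9.69), a log2 fold change of -1.89 ± 0.25 (SE, adjusted p = 7.39e-13). Cytokine, chemokine and receptor genes were neighbours of 42 peaks (7 of 19 genes), with 12 gained (28.6%) and 11 lost (26.2%) and a median of 0.13.

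In this last list, the 4 genes with the smallest adjusted p all had a loss as their leading change, while CXCR4, a chemokine receptor gene, had 4 of 6 peaks gained and 0 lost, CD83, a dendritic cell surface marker, 5 of 14 gained and 2 lost, and IL6 1 of 2 gained and 0 lost; these 3 are named after their values were seen. At TNFAIP3, an inhibitor of NF-κB signalling, the peak 97.7 kb away fell from 40.3 to 69.1 normalised reads (median 52.8) to 14.3 to 25.2 (median 21.7; adjusted p = 1.13e-10). At KITLG, the ligand of the receptor KIT, the leading peak fell from 27.7 to 57.2 (median 38.9) to 8.29 to 23.3 (median 11.2; adjusted p = 6.78e-09). At CSF1, which encodes the macrophage growth factor M-CSF, it fell from 101 to 136 (median 118) to 69.5 to 81.3 (median 74.5; adjusted p = 5.47e-07). At CD44, an adhesion receptor gene, 3 of 5 peaks were lost and 0 gained, with overlap of the groups at the leading one (median 52.2 against 24.7); on chromosome 11, 33.7% of all peaks were lost and 15.0% gained. The groups did not overlap at the TNFAIP3, KITLG and CSF1 peaks, which their choice by smallest adjusted p made likely. The list of blood noncoding RNAs, counted by peaks inside the gene, had 26 peaks in 6 of 20 genes, with 4 gained (15.4%) and 10 lost (38.5%) and a median of -0.23; CCDC26 and LINC00299 held 9 of the 10 lost peaks.

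Calls leaned with the chromosome in places, and the chromosomes given were chosen after their values were seen. On chromosome 22, 16 of 34 far distal peaks were gained and 2 lost, where 31.0% of all peaks were gained and 11.7% lost. On chromosome 18, 7 of 69 were gained and 28 lost, where the shares over all peaks were 15.6% and 26.6%. On chromosome 8, 53 of 257 were gained and 87 lost. Whether these leanings came with the knockdown or with another difference between the cells of the arms cannot be told apart. When each log2 fold change was centred on the median of all peaks within its 10 Mb window, 955 far distal peaks were gained and 862 lost, and 1691 of the 1822 calls remained with the same direction.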

How the data were processed

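RUNX1 ChIP-seq of THP-1 cells was analysed from the deposited table of raw read counts per peak, which also gives each peak's position and width. According to the study's methods, the authors aligned reads with bowtie2, removed duplicates, called peaks with macs2 per condition and batch, kept reproducible peaks, merged them over both conditions and obtained the counts with featureCounts; versions are not given in the sources used here. Because peaks were called in the compared libraries, their selection is not independent of the comparison. The labels list human and mouse builds, and the coordinates were taken as GRCh38, since 24.4% of peaks lay within 1 kb of a GRCh38 gene end and 5.48 to 7.58% did when shifted by 10 kb to 1 Mb.

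Distances were measured from peak edges to protein-coding gene ends of RefSeq GRCh38.p14 (20037 genes). All 26642 peaks were fitted together in DESeq2 1.42.0 (R 4.3.3) with genotype and batch (the study's methods name DESeq2 and its thresholds; the batch term was added here), and p-values were Benjamini-Hochberg adjusted over the table (adjusted p under 0.05, fold change over 1.1); edgeR 4.0.16 was an alternative. On simulated counts with 200 changed peaks among 26642 the code was tested before use. The simulation had as many rises as falls and no batch effect. In the data 42% of all peaks were called, a setting that the simulation did not cover. Motif searches were limited to RefSeq promoter windows. Peaks, lists and gene deserts were chosen with earlier results of these data known. Named peaks were the 8 largest gains and 8 largest losses (mean of at least 30 normalised reads, groups apart in each batch), the 5 strongest, the farthest, the 5 deserts and 5 noncoding genes with the most peaks (all ties for the latter), and per gene list the peak of smallest adjusted p for at most 4 genes. Peaks at promoters and microRNA genes were added after their values were seen. No library was left out, and read totals limit precision to counting and library spread.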

Additional observations from a re-analysis of the deposited data

Results flagged for a closer look

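Control library 1 stood apart from the other 5 control libraries in the share of its in-peak reads that fell in far distal peaks, 10.2% beside 11.4 to 11.6%. At the peak between CCDC74A and LOC124908048 (chr2:131923239-131923853), one of the largest losses, knockdown library 5 held 5.74 normalised reads, beside 11.9 to 14.9 in the other 5 knockdown libraries. These were 2 of 48 groups of 6 libraries searched by the gap of the highest or lowest library (Dixon's test), and chance alone gives about 1 in 20, or 2.4. No far distal peak differed in its knockdown effect between batches after adjustment.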

How the results depend on the processing

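The 1822 far distal calls stayed close to evenly split under each setting run over both batches: gains were 48.5 to 53.1% of calls, and no call shared with another setting turned direction. All settings scaled the libraries to each other on in-peak counts, so none could show a change shared by all peaks. edgeR's quasi-likelihood test called 2004, and TMM scaling, total-count scaling, size factors from the other peaks, the fit without batch, a stricter adjusted p of 0.01 and centring on 10 Mb windows called 1457 to 1878. A minimum of 10 counts in each library kept 2089 peaks for the test, with 858 called (449 gained, 409 lost; 332, 234, 209 and 83 by increasing distance; 460 in gene deserts, 282 in noncoding genes). A fold change over 2 left 893 (433 gained, 460 lost; 317, 228, 233 and 115 by distance; 518 in gene deserts, 275 in noncoding genes). A limit of 100 kb in place of 50 kb kept 2249 peaks, with 1183 called and 582 gained.

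With the replicate block, 1241 far distal peaks were called, of which 611 were gained, 335 lay at 100 to 200 kb and 377 in noncoding genes; same-numbered libraries did not deviate together (correlations -0.064 to 0.014), so they share only a number. Leaving out each library in turn gave 1602 to 1770 calls, 812 to 899 gained and 782 to 871 lost; 577 to 622, 436 to 486, 403 to 451 and 181 to 219 calls by distance; 901 to 1006 in gene deserts, 491 to 546 in noncoding genes and a median log2 fold change of 0.03 to 0.06. Within batch 1 it gave 45 to 383 calls in place of 575 (1284 by edgeR), and within batch 2, 759 to 1026 in place of 1179. The 110 named peaks were compared on leaving out each of 12 libraries and under 8 other settings. The minimum-count filter, the stricter adjusted p and the larger fold change were not applied to them. Within that range, 9 lost and 9 gained a call and 0 reversed. The chromosome 8 peak between UBE2V2 and CLXN became a gain when centred (0.39), and the loss beside H3-7 was no longer called with the block. Named calls with smaller changes, such as the gain in LINC01512 (log2 fold change 0.49), would not pass the larger fold change. The median far distal peak held 16 to 41 reads per library, which limits precision at the weakest peaks. Even so, the weakest of the 4 strength classes had the highest share called (55.2%). The libraries cannot tell fewer bound cells from weaker binding per cell.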
